A study of Homo sapiens with 8 samples.

Results

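Wnt signaling genes were followed in whole tumors of HCC1937, an established human cell line of triple-negative breast cancer. The genes were chosen by symbol from a table of 18164 genes and number 44. They comprise 18 Wnt ligands, 10 Frizzled receptors, 5 co-receptors (LRP5, LRP6, ROR1, ROR2 and RYK), 7 feedback regulators and R-spondin receptors (AXIN2, NKD1, RNF43, ZNRF3, LGR4, LGR5 and LGR6) and 4 secreted inhibitors (DKK1, DKK3, SFRP1 and WIF1). The tumors grew orthotopically, from this 1 line, in the mammary fat pads of NCG mice, an immunodeficient NOD strain with edited Prkdc and Il2rg that lacks mature lymphocytes and keeps myeloid cells. Treatment began once tumors had reached a set size. One group of 4 tumors came from mice given nicotinamide mononucleotide (NMN), an NAD+ precursor, at 500 mg/kg/day, and a second group of 4 from mice given Vehicle. They are named by group and number, NMN 1 to 4 and Vehicle 1 to 4. The labels give neither the age of the mice nor the length of treatment, and do not say that each tumor came from its own mouse, so a p-value here reflects the spread among the 8 samples only.

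Wnt ligands are secreted lipid-modified glycoproteins that bind Frizzled receptors. In the canonical branch the ligand joins Frizzled to LRP5 or LRP6, the complex that destroys β-catenin is held off, and β-catenin activates TCF and LEF target genes, AXIN2 among them. In other branches ROR1, ROR2 and RYK act as receptors, mainly for WNT5A-like ligands. RNF43 and ZNRF3 remove Frizzled from the cell surface, and R-spondins bound to LGR4, LGR5 or LGR6 block that removal. In the mammary gland Wnt signaling is known for its part in basal stem cells and ductal growth.

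Levels are TPM (transcripts scaled to a fixed library total) as the authors deposited them, a unit that is scaled by transcript length, so levels can be set side by side between genes. It keeps no record of read depth, which is unknown here. A gene counted as expressed, and was tested, when it had at least 1 TPM in at least 4 of the 8 tumors. That held for 35 of the 44 genes and for 13358 of the 18164 genes in the table. Of the 35, FZD3 was the one with tumors under 1 TPM, Vehicle 1 at 0.82 and Vehicle 2 at 0.97 TPM. Differences are log2 fold changes of NMN over Vehicle tumors, taken after adding 1 to each TPM value, so that changes of low genes are understated. They come from limma's moderated linear model over all tested genes and are given ± their standard error, with Benjamini-Hochberg adjustment and a threshold of 0.05.

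Between NMN and Vehicle tumors, 0 of the 35 tested Wnt genes passed the test, and 0 of all 13358 tested genes did (0%), of which 927 had an unadjusted p under 0.05. The smallest adjusted p among the 35 was 0.473, for SFRP1. At an unadjusted p under 0.05 stood 5 of the 35 genes, or 14.3%, against 6.94% of all tested genes, the 927 just given. WNT6, SFRP1, FZD7 and LGR6 were the 4 with the higher mean in NMN tumors (11.4%, against 4.79% of all tested genes), and DKK1 was the 1 with the lower mean (2.86%, against 2.15%). The groups overlapped in each of the 35 genes, so 0 were separated, where 3.05% of all tested genes were, 2.08% with NMN tumors higher and 0.966% with NMN tumors lower. A higher mean log2 level in NMN tumors was seen in 21 of the 35 (60.0%, against 51.0% of all tested genes), and their median log2 fold change was 0.09, against 0.00 over all tested genes.

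**Figure D1:**
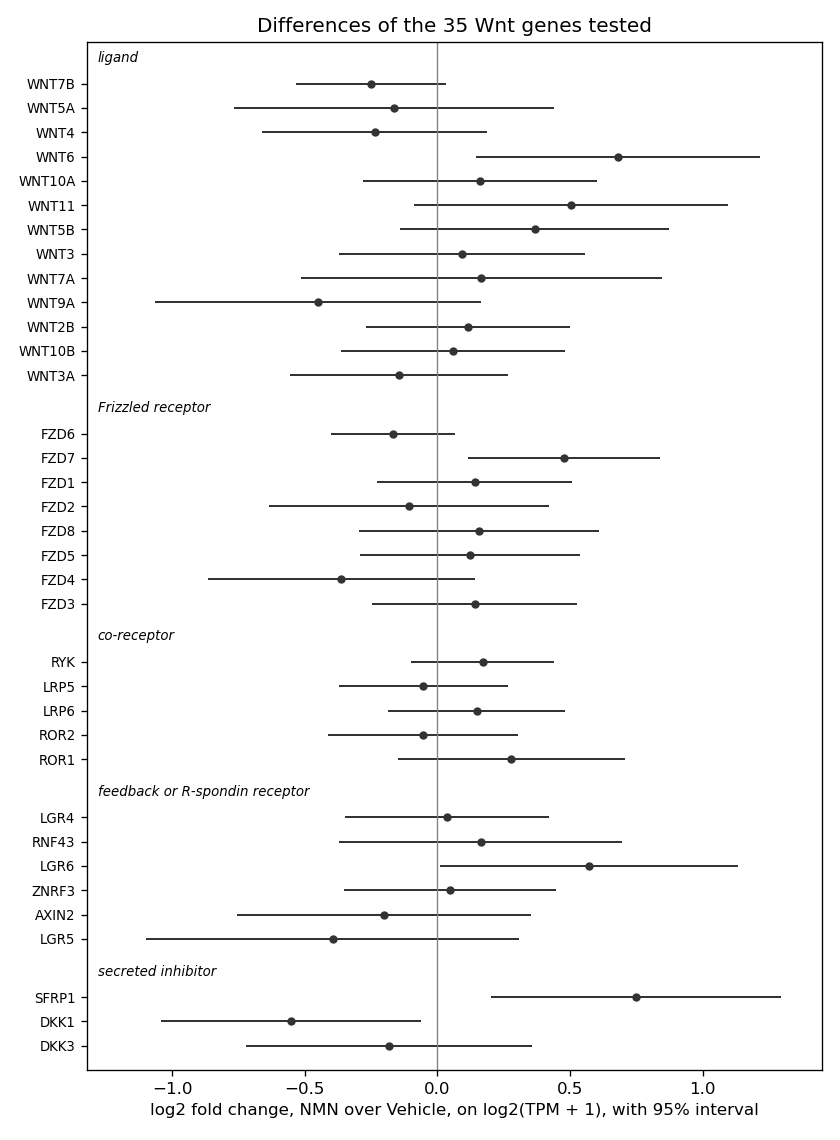
Log2 fold change of each of the 35 tested Wnt genes, NMN over Vehicle on log2(TPM + 1), on the horizontal axis; points are limma estimates from 4 against 4 tumors, lines their 95% intervals without adjustment for the number of genes tested, and genes are grouped by role. The intervals of WNT6, SFRP1, FZD7 and LGR6 lie above 0 and that of DKK1 below, and none of these passed after adjustment over all 13358 genes.

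The tumors carried the epithelial and basal markers of the line. All 11 markers listed for it were expressed, with summed levels from 11741 to 14867 TPM in NMN tumors, against 10787 to 20159 TPM in Vehicle tumors. Most of that sum came from the keratins KRT5, KRT14 and KRT17. In NMN tumors 6 of the 11 markers had the higher mean log2 level and 5 the lower one, KRT5 and KRT14 among the 5. Of the 11 markers 0 passed the test, while 4 (KRT8, KRT18, KRT7 and EPCAM) had an unadjusted p under 0.05. All 4 had the higher mean in NMN tumors (36.4%, against 4.79% of all tested genes). KRT8, a luminal keratin named here after its values were seen, was at 879, 707, 909 and 841 TPM in NMN 1 to 4, against 542, 315, 537 and 265 TPM in Vehicle 1 to 4. The groups did not overlap in KRT8, the 1 of the 11 markers where this held, against 2.08% of all tested genes with NMN tumors higher. The log2 fold change of KRT8 was 1.07 ± 0.21 (adjusted p = 0.221). The progesterone receptor gene PGR was at 0 in 7 of the 8 tumors and at 0.02 TPM in Vehicle 4. ESR1 was at 3.37 to 6.00 TPM in NMN tumors, against 4.04 to 5.72 TPM in Vehicle tumors, and ERBB2 at 80.9 to 120.3 TPM in NMN tumors, against 77.6 to 130.03 TPM in Vehicle tumors. Host cells can also contribute reads, and the labels do not say how mouse reads were treated. In whole-tumor RNA, fewer cells of a type and less RNA per cell cannot be told apart. Skeletal muscle markers set NMN 1 to 3 apart from the other tumors, with 92.5, 95.7 and 96.5 TPM in sum over 16 genes, against 802 TPM in NMN 4 and 541 to 2932 TPM in Vehicle tumors. MB and TNNI2 made up most of the sum in NMN 1 to 3. There ACTA1 was at 0.88, 0.36 and 1.16 TPM, against 268 TPM in NMN 4 and 178 to 1024 TPM in Vehicle tumors. Of 15 tested muscle genes the mean was lower in NMN tumors for 14, and 0 passed the test. All 14 had an unadjusted p under 0.05 (93.3%, against 2.15% of all tested genes). The groups did not overlap in 1, MYH4, against 0.966% of all tested genes with NMN tumors lower. MB was the 1 muscle gene with the higher mean, also at an unadjusted p under 0.05. The sum of 15 hypoxia response genes was 4825, 6666, 6733 and 2904 TPM in NMN 1 to 4, and 2409 to 3601 TPM in Vehicle tumors. All 15 had the higher mean in NMN tumors, and 0 passed the test. Of these, 12 had an unadjusted p under 0.05 (80.0%, against 4.79% of all tested genes). The groups did not overlap in 3 (BNIP3, DDIT4 and P4HA1), against 2.08% of all tested genes with NMN tumors higher. Fibroblast markers summed to 121 to 237 TPM in NMN tumors, against 192 to 292 TPM in Vehicle tumors, while the fibroblast genes DCN and LUM were at 0 in 7 of 8 tumors. Sums of adipocyte markers were 13.9 to 219 TPM (NMN) and 8.79 to 98.3 TPM (Vehicle), of endothelial markers 5.40 to 7.29 TPM (NMN) and 3.66 to 5.62 TPM (Vehicle), and of myeloid markers 51.4 to 92.2 TPM (NMN) and 54.3 to 78.6 TPM (Vehicle). FABP4 was the largest part of the adipocyte sum in every tumor, while ADIPOQ was at 0 in 7 of 8. CD68 was the largest part of the myeloid sum in every tumor. It had the higher mean in NMN tumors, while the other 5 of 6 tested myeloid genes had the lower one. The part of muscle, hypoxia and other marker levels in the Wnt values was not tested.

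Of the 18 Wnt ligand genes, 13 were expressed. WNT7B, a ligand of the canonical branch in epithelia, was the most abundant, with 29.2, 27.0, 31.5 and 37.9 TPM in NMN 1 to 4, against 32.7, 36.5, 38.3 and 42.0 TPM in Vehicle 1 to 4. NMN 1, 2 and 3 lay below every Vehicle tumor and NMN 4 lay within the Vehicle range. The log2 fold change of WNT7B was -0.25 ± 0.13 (adjusted p = 0.799; exact permutation p = 0.114). WNT5A, the best known ligand of the noncanonical branch, came next with a mean of 19.5 ± 5.12 TPM in NMN tumors, against 22.8 ± 8.41 TPM in Vehicle tumors (SD, n = 4 each). WNT4, which in the mouse mammary gland acts downstream of progesterone, was at 17.8 ± 2.50 TPM in NMN tumors, against 21.8 ± 6.78 TPM in Vehicle tumors. WNT7B lay above WNT5A within each of the 8 tumors, though their ranges overlapped, and WNT5A lay above WNT4 in 6 of 8. The ranges of neighbors overlapped all along the order of the ligands.

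A middle tier held WNT6, WNT10A, WNT11 and WNT5B. WNT11, a noncanonical ligand of gastrulation movements in zebrafish and frog, was at 17.9, 7.47, 13.5 and 8.42 TPM in NMN 1 to 4, against 10.02, 7.90, 8.39 and 4.83 TPM in Vehicle 1 to 4. NMN 1 and NMN 3 lay above the Vehicle range and NMN 2 and NMN 4 within it, and the log2 fold change was 0.50 ± 0.27 (adjusted p = 0.807). WNT5B, the close relative of WNT5A, had a mean of 7.51 ± 2.82 TPM in NMN tumors, against 5.45 ± 1.22 TPM in Vehicle tumors. A low tier ran from WNT3, at 3.78 ± 0.787 TPM in NMN tumors, against 3.56 ± 1.33 TPM in Vehicle tumors, to WNT3A, at 1.43 ± 0.412 TPM (NMN) and 1.68 ± 0.442 TPM (Vehicle). Between them lay WNT7A (means 3.58 TPM in NMN and 3.42 TPM in Vehicle tumors), WNT9A, WNT2B (2.71 TPM in NMN and 2.44 TPM in Vehicle tumors) and WNT10B (2.05 TPM in NMN and 1.97 TPM in Vehicle tumors). WNT9A was at 2.70, 1.63, 2.85 and 3.22 TPM in NMN 1 to 4, against 2.42, 3.37, 3.13 and 7.91 TPM in Vehicle 1 to 4, and its log2 fold change of -0.45 ± 0.28 (adjusted p = 0.860) was -0.16 without Vehicle 4.

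The other 5 ligand genes were not tested. WNT2 was at 0.03, 0.12, 0.23 and 0.15 TPM in NMN 1 to 4, against 0.22, 0.24, 0.35 and 0.25 TPM in Vehicle 1 to 4. WNT8B, WNT9B and WNT16 stayed at or below 0.21 TPM in every tumor, and WNT1, the founding member of the family, was listed at 0 in all 8.

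**Figure D2:**
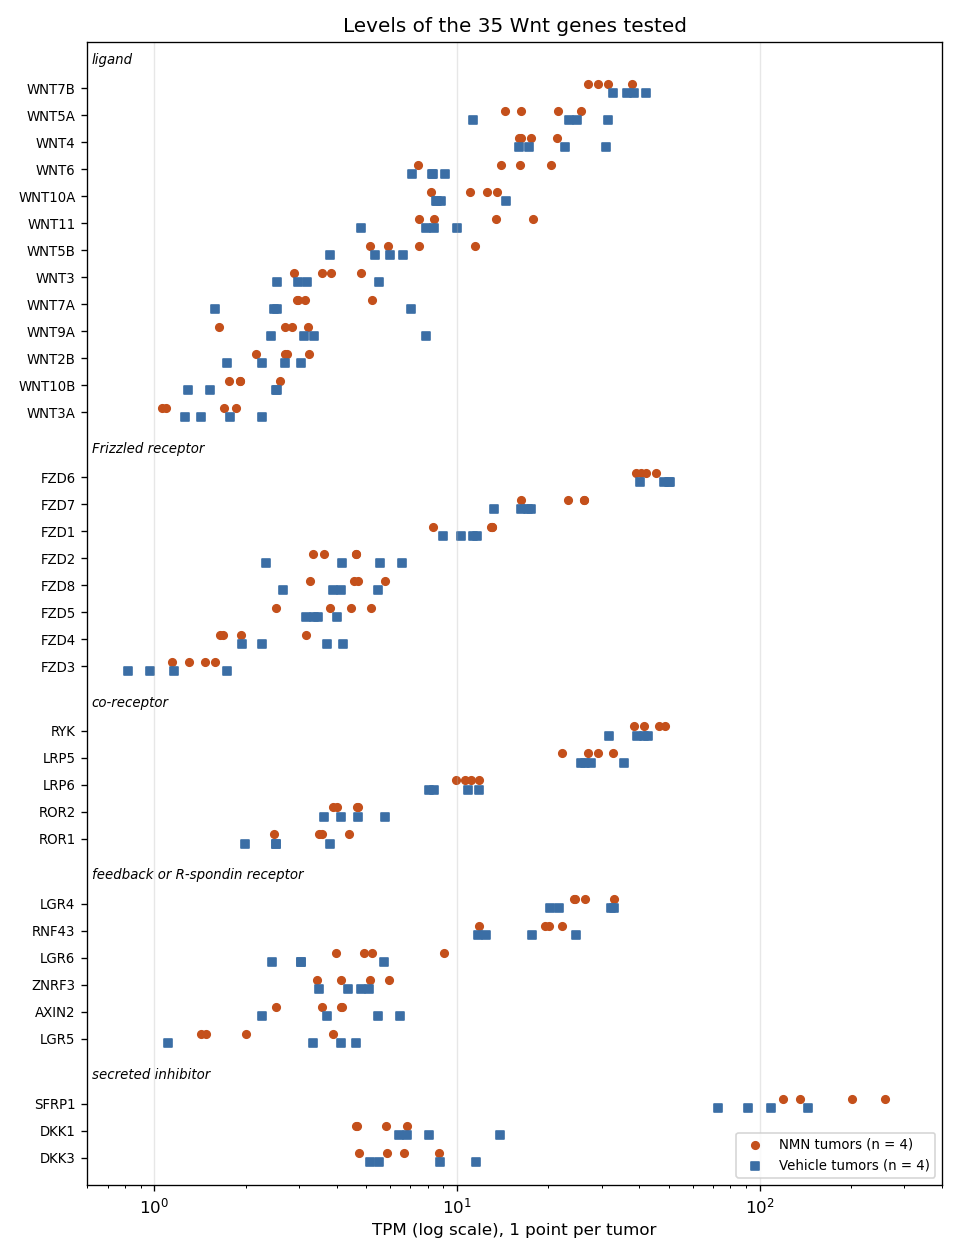
TPM of the 35 tested Wnt genes on a log axis, 1 point per tumor, with NMN tumors as circles above Vehicle tumors as squares in each row, grouped by role and ordered by mean level. SFRP1, with means of 179 and 104 TPM in NMN and Vehicle tumors, lies to the right of all ligands and receptors.

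WNT6 was the ligand with the largest positive difference between the groups. This ligand, which takes part in epithelium formation in the somites of chick and mouse embryos, lies on chromosome 2 from 218859821 to 218874233 on the plus strand (GENCODE 29, GRCh38). It was at 16.2, 7.41, 20.4 and 14.0 TPM in NMN 1 to 4, against 7.07, 8.30, 8.29 and 9.09 TPM in Vehicle 1 to 4. NMN 1, NMN 3 and NMN 4 lay above every Vehicle tumor and NMN 2 lay within the Vehicle range. The means were 14.5 ± 5.42 TPM in NMN tumors, against 8.19 ± 0.834 TPM in Vehicle tumors, a ratio of 1.77. The estimate was 0.68 ± 0.24 on the log2 scale, 95% interval 0.14 to 1.21 (unadjusted p = 0.0172, adjusted p = 0.541). By exact permutation of the 4 against 4 tumors p was 0.114, where the smallest possible is 0.0286. By p WNT6 ranked 425 among all tested genes. With 1 tumor left out that rank ran from 7 (without NMN 2) to 1062 (without Vehicle 1), with 1032 without NMN 4, 711 without Vehicle 3, 661 without NMN 3 and 655 without NMN 1, and with library weights it was 161. The gene was singled out with earlier results of these data known, so these values describe it and support nothing further. Without NMN 2 the log2 fold change was 0.95 and did not pass (adjusted p = 0.252), and without NMN 3 it was 0.50 (unadjusted p = 0.0602). From the highest to the lowest WNT6, NMN 3, NMN 1, NMN 4 and NMN 2 had hypoxia sums of 6733, 4825, 2904 and 6666 TPM, and the part of hypoxia in the WNT6 levels was not tested.

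**Figure D3:**
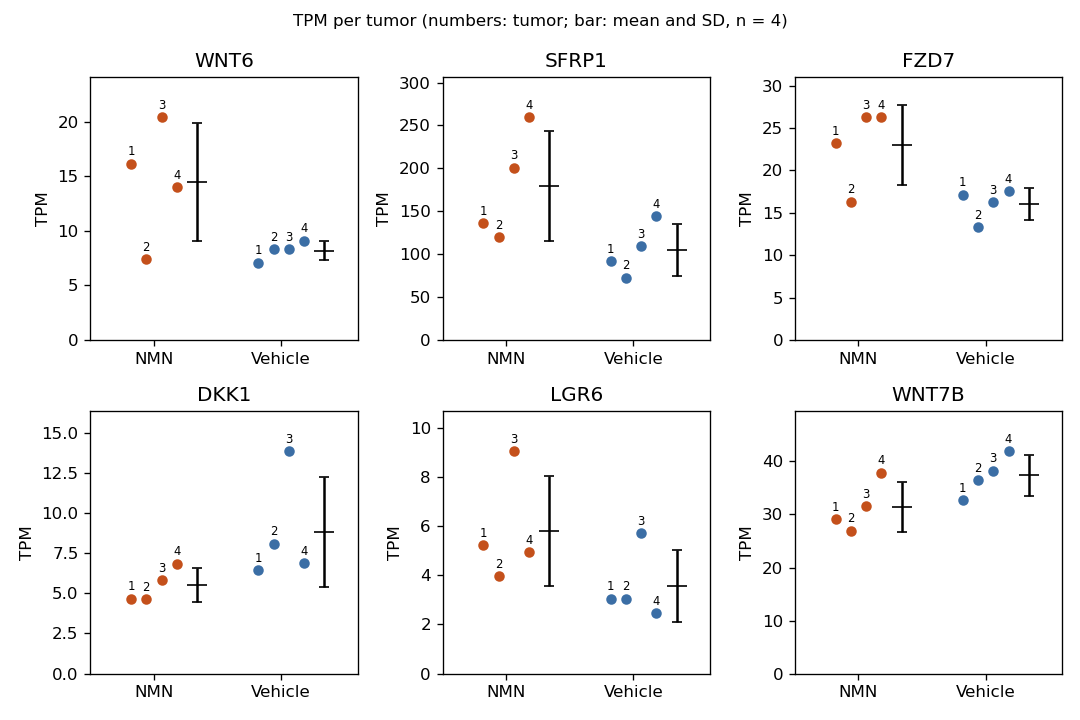
TPM per tumor of WNT6, the 4 other Wnt genes with an unadjusted p under 0.05 (SFRP1, FZD7, DKK1 and LGR6) and WNT7B, the most abundant ligand, with NMN tumors left and Vehicle tumors right; numbers give the tumor and bars the mean and SD (n = 4). In WNT6 the 4 Vehicle tumors lie between 7.07 and 9.09 TPM, with NMN 2 at 7.41 TPM among them and the other NMN tumors at 14.0 to 20.4 TPM.

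As a share of the summed ligand TPM, though not in its own level, WNT6 was separated between the groups. The 18 ligand genes summed to 135, 106, 139 and 141 TPM in NMN 1 to 4, against 127, 127, 128 and 144 TPM in Vehicle 1 to 4. The sums overlapped, with NMN 2 below every Vehicle tumor. WNT6 made up 11.9%, 7.002%, 14.7% and 9.91% of that sum in NMN 1 to 4 and 5.57%, 6.56%, 6.49% and 6.31% in Vehicle 1 to 4. Every NMN tumor had a larger share than any Vehicle tumor, which held for 1 of the 13 expressed ligands (7.69%) and in the opposite direction for 0 (0%). In NMN 2 the WNT6 level, 7.41 TPM, lay within the Vehicle range, so its larger share rests on its low ligand sum. This share was looked at after the values were seen and carries no test. WNT6 ranked between 2 and 6 among the ligands in NMN tumors and between 5 and 6 in Vehicle tumors. Against WNT7B, the ratio of WNT6 was 0.554, 0.275, 0.647 and 0.369 in NMN 1 to 4 and between 0.216 and 0.227 in Vehicle tumors. This ratio too was chosen after the values were seen, and WNT7B had the lower mean in NMN tumors, so both genes enter it.

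**Figure D4:**
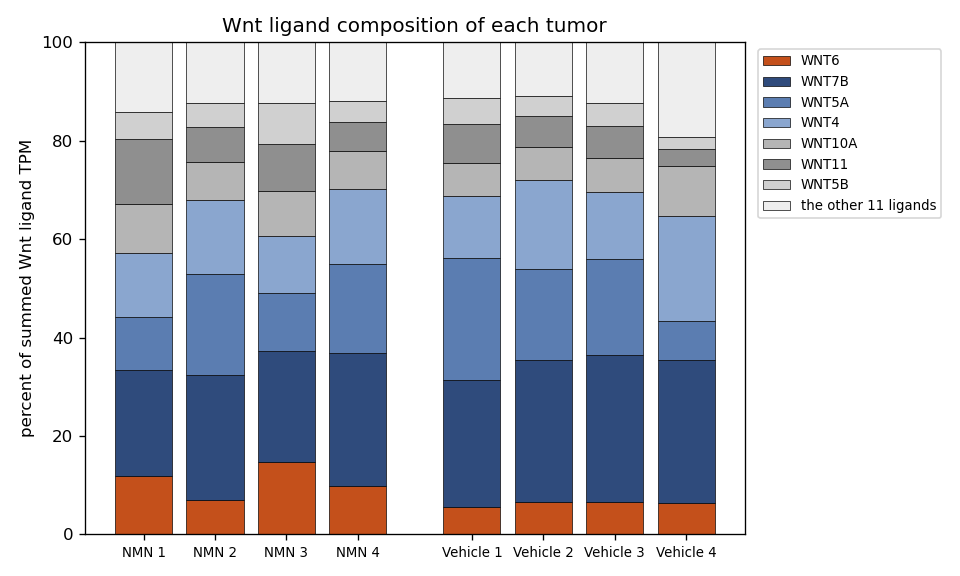
Share of each Wnt ligand in the summed TPM of the 18 ligand genes, in percent on the vertical axis, 1 bar per tumor, with NMN tumors left of Vehicle tumors and WNT6 at the base. The WNT6 segment spans 7.002% to 14.7% in NMN tumors and 5.57% to 6.56% in Vehicle tumors.

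The 5 tested genes around WNT6 had smaller differences. WNT10A, a ligand of skin appendage and tooth development, starts 6129 bases past the end of WNT6 on the same strand. It was at 13.5, 8.19, 12.5 and 11.04 TPM in NMN 1 to 4, against 8.59, 8.51, 8.84 and 14.5 TPM in Vehicle 1 to 4, with a log2 fold change of 0.16 ± 0.20 (adjusted p = 0.957). NMN 2 was again the lowest NMN tumor, and Vehicle 4 was the highest of all 8. On the other side STK36, a kinase of the hedgehog pathway, and TTLL4, a tubulin-modifying enzyme, had log2 fold changes of 0.29 ± 0.17 and 0.10 ± 0.14. CYP27A1, a sterol hydroxylase, and PRKAG3, a muscle subunit of the kinase AMPK, which lie nearer, were at 0.08 ± 0.18 and -0.12 ± 0.16. The difference between WNT6 and these neighbors was not tested. In the other Wnt gene pairs that lie side by side, WNT3 was expressed while WNT9B stayed at or below 0.17 TPM, and WNT10B was expressed while WNT1 was at 0. In the pair of WNT3A and WNT9A both were expressed at low levels.

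The promoters of WNT6, the ligand with the largest positive difference, and of DKK1, a secreted inhibitor that is itself a known β-catenin target and differed the opposite way, are shown as the 250 bases before the RefSeq start, plus strand, GRCh38.p14. The WNT6 window is chr2:218859555-218859804 and the DKK1 window chr10:52314031-52314280. Capitals mark CTTTG, the core of the TCF and LEF motif, on either strand (CAAAG on the other). No base of the WNT6 window is in capitals.
WNT6: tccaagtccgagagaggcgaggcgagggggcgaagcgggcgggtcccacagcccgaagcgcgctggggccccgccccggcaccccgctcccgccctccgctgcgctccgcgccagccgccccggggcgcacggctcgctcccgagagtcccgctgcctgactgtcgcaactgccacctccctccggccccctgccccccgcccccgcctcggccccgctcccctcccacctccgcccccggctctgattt
DKK1: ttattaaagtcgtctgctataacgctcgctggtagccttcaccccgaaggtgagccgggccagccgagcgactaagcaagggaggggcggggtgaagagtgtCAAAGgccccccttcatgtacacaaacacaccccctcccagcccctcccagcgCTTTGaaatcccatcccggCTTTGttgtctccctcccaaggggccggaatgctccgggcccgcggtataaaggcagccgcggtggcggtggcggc
The DKK1 window held 3 matches, which start 148, 95 and 76 bases before the start and do not overlap, and the WNT6 window held 0. Neither window held ACGTG, the core of the hypoxia response element, on either strand. RefSeq windows of 29 of the 44 genes were searched. Not among them were SFRP1, FZD6, FZD3, AXIN2, LGR5, NKD1, ZNRF3, FZD2, FZD7, FZD10, LRP6, DKK3, WNT7B, WNT10B and WNT11, so the shares do not describe these genes. Of the 35 windows searched, 9 held CTTTG (25.7%), against 42.1% of the 35116 windows of all genes, and 1 held ACGTG (2.86%, against 18.5%). The WNT6 window is 79.2% G and C, the DKK1 window 62.8%, and the median over all windows is 58.0%. A match describes letters and is no evidence of binding.

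Of the 10 Frizzled receptors, 8 were expressed, and FZD6 and FZD7 together made up 67.8% to 73.4% of the summed Frizzled TPM in NMN tumors, against 67.9% to 71.8% in Vehicle tumors. FZD6, a receptor known from planar cell polarity of mouse hair, led with 40.5, 42.2, 39.07 and 45.3 TPM in NMN 1 to 4, against 50.5, 40.1, 49.97 and 48.2 TPM in Vehicle 1 to 4. NMN 3 lay below the Vehicle range and the other NMN tumors within it, a log2 fold change of -0.17 ± 0.11 with a 95% interval of -0.40 to 0.07 (adjusted p = 0.861; exact permutation p = 0.114). FZD7, a receptor linked in the literature to triple-negative breast cancer and to mammary stem cells, was at 23.2, 16.3, 26.3 and 26.3 TPM in NMN 1 to 4, against 17.1, 13.3, 16.2 and 17.5 TPM in Vehicle 1 to 4. As in WNT6, NMN 1, NMN 3 and NMN 4 lay above every Vehicle tumor and NMN 2 within the Vehicle range. For FZD7 the estimate was 0.48 ± 0.16 on the log2 scale, 95% interval 0.12 to 0.84 (unadjusted p = 0.0139, adjusted p = 0.500; exact permutation p = 0.0857).

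FZD1 showed the same 3 NMN tumors above the Vehicle range, at 12.99 to 13.07 TPM, but NMN 2, at 8.32 TPM, lay below the Vehicle tumors, which were at 8.99 to 11.6 TPM. Its log2 fold change was 0.14 ± 0.17, and 0.29 without NMN 2. FZD6, FZD7 and FZD1 kept this order with no overlap of their ranges over the 8 tumors. FZD2 averaged 4.05 TPM in NMN tumors, against 4.66 TPM in Vehicle tumors. For FZD8 the means were 4.58 TPM (NMN) and 4.04 TPM (Vehicle), and for FZD5 3.998 TPM (NMN) and 3.50 TPM (Vehicle). The order of these 3 receptors differed from tumor to tumor. FZD4, the receptor of norrin in retinal vessels, was at 1.65, 1.68, 1.93 and 3.18 TPM in NMN 1 to 4, against 4.21, 2.27, 3.73 and 1.95 TPM in Vehicle 1 to 4. NMN 1 to 3 lay below every Vehicle tumor, as they did in WNT7B and DKK1. In these 3 tumors the sum of the muscle markers was lowest and that of the hypoxia response genes highest. The part of either in the FZD4 levels was not tested. The log2 fold change of FZD4 was -0.36 ± 0.23 (adjusted p = 0.860). FZD3, the lowest receptor tested, averaged 1.37 TPM in NMN tumors, against 1.17 TPM in Vehicle tumors. FZD9 averaged 0.630 TPM in NMN tumors, against 0.568 TPM in Vehicle tumors, and FZD10 was listed at 0 in 6 of the 8 tumors, so these 2 were not tested.

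All 5 co-receptors were expressed. RYK, a receptor with a Wnt-binding domain and an inactive kinase, was at 41.4, 38.5, 46.6 and 48.7 TPM in NMN 1 to 4, against 42.8, 31.9, 41.6 and 39.2 TPM in Vehicle 1 to 4, a log2 fold change of 0.17 ± 0.12 with a 95% interval of -0.10 to 0.44 (adjusted p = 0.897; exact permutation p = 0.257). NMN 3 and NMN 4 lay above the Vehicle range and the other NMN tumors within it. LRP5 averaged 27.8 ± 4.35 TPM in NMN tumors, against 28.8 ± 4.54 TPM in Vehicle tumors, and LRP6, its paralog in the same receptor complex, 10.9 ± 0.781 TPM (NMN) and 9.81 ± 1.85 TPM (Vehicle). LRP5 lay above LRP6 in all 8 tumors without overlap. The receptor kinase genes were lower, ROR2 at 4.31 ± 0.427 TPM in NMN tumors, against 4.56 ± 0.925 TPM in Vehicle tumors, and ROR1 at 3.49 ± 0.775 TPM in NMN tumors, against 2.72 ± 0.773 TPM in Vehicle tumors. On the log2 scale the 95% interval of the difference ran from -0.37 to 0.27 for LRP5 and from -0.19 to 0.48 for LRP6.

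Of the 7 feedback regulators and R-spondin receptors, 6 were expressed. AXIN2, a scaffold of the β-catenin destruction complex and the most general target of the canonical branch, was at 3.58, 2.52, 4.13 and 4.18 TPM in NMN 1 to 4, against 6.48, 3.73, 5.49 and 2.27 TPM in Vehicle 1 to 4. The NMN tumors all lay within the Vehicle range, and the estimate was -0.20 ± 0.25 on the log2 scale, 95% interval -0.76 to 0.35 (adjusted p = 0.957). NKD1, which binds Dishevelled and is induced by the pathway, averaged 0.868 TPM in NMN tumors, against 0.760 TPM in Vehicle tumors and was not tested. The ubiquitin ligase gene RNF43 averaged 18.4 ± 4.53 TPM in NMN tumors, against 16.7 ± 6.01 TPM in Vehicle tumors, and its relative ZNRF3 4.67 ± 1.11 TPM (NMN) and 4.44 ± 0.705 TPM (Vehicle). The log2 fold change was 0.16 ± 0.24 for RNF43 and 0.05 ± 0.18 for ZNRF3.

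Among the R-spondin receptors LGR4 was the most abundant, at 27.0 ± 4.01 TPM in NMN tumors, against 26.8 ± 6.73 TPM in Vehicle tumors, with a log2 fold change of 0.04 ± 0.18 that changed sign with library weights. LGR6 was at 5.23, 3.97, 9.06 and 4.93 TPM in NMN 1 to 4, against 3.04, 3.04, 5.72 and 2.45 TPM in Vehicle 1 to 4. NMN 3 lay above the Vehicle range and the other NMN tumors within it, below Vehicle 3. For LGR6 the estimate was 0.57 ± 0.26 on the log2 scale, 95% interval 0.01 to 1.13 (unadjusted p = 0.0464, adjusted p = 0.711; exact permutation p = 0.114). LGR5, a stem cell marker of the intestine and itself a pathway target, was at 2, 1.43, 1.48 and 3.90 TPM in NMN 1 to 4, against 4.15, 1.11, 3.33 and 4.63 TPM in Vehicle 1 to 4. The low tumors were NMN 1 to 3 and Vehicle 2, and its log2 fold change of -0.40 ± 0.32 did not pass (adjusted p = 0.919).

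SFRP1 was the most abundant of the 44 genes. It encodes a secreted protein with a Frizzled-like domain that binds Wnt ligands, and is reported to be silenced in many breast cancers. It was at 136, 120, 201 and 260 TPM in NMN 1 to 4, against 91.8, 72.8, 109 and 144 TPM in Vehicle 1 to 4. NMN 3 and NMN 4 lay above every Vehicle tumor, while NMN 1 and NMN 2 lay above Vehicle 1 to 3 and below Vehicle 4. The estimate was 0.75 ± 0.25 on the log2 scale, 95% interval 0.20 to 1.29 (unadjusted p = 0.0117, adjusted p = 0.473; exact permutation p = 0.0857). From the highest to the lowest SFRP1, NMN 4, NMN 3, NMN 1 and NMN 2 had hypoxia sums of 2904, 6733, 4825 and 6666 TPM, whose part in the SFRP1 levels was not tested. Set against the ligands, SFRP1 was at 1.003, 1.13, 1.44 and 1.84 times the summed ligand TPM in NMN 1 to 4, against 0.723, 0.575, 0.852 and 1.00 times in Vehicle 1 to 4. By this ratio the groups were separate, with NMN 1 and Vehicle 4 nearly equal, and it was formed after the values were seen and has no test. The ligand sum enters it too, and was lowest in NMN 2, at 106 TPM.

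DKK1, which blocks LRP5 and LRP6, lies on chromosome 10 from 52314296 to 52318042 on the plus strand. It was at 4.67, 4.62, 5.83 and 6.83 TPM in NMN 1 to 4, against 6.42, 8.08, 13.9 and 6.85 TPM in Vehicle 1 to 4. NMN 1, NMN 2 and NMN 3 lay below every Vehicle tumor and NMN 4 between Vehicle 1 and Vehicle 4. The estimate was -0.55 ± 0.22 on the log2 scale, 95% interval -1.04 to -0.06 (unadjusted p = 0.0309, adjusted p = 0.637; exact permutation p = 0.0571). It was -0.33 without Vehicle 3, the tumor with the highest DKK1. DKK3, a distant member of the same family with no settled role at LRP receptors, was at 4.75 to 8.72 TPM in NMN tumors, against 5.16 to 11.5 TPM in Vehicle tumors, and WIF1, a Wnt-binding inhibitor, stayed at or below 0.32 TPM.

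NMN 2 was most often the lowest NMN tumor. It was so in 29 of the 35 tested Wnt genes (82.9%), against 49.3% of all tested genes, and was the highest in 1, FZD3. NMN 4 was the highest in 18 (51.4%, against 51.9%). In the Vehicle group Vehicle 2 was the lowest in 14 of the 35 (40.0%, against 41.5%). Median-of-ratios size factors, which measure how far the typical gene of a library lies from the average, were 0.922 in NMN 2, 1.10 in NMN 4, 0.921 in Vehicle 2 and 0.980 to 1.07 in the other 5 tumors. After division by them WNT6 still had NMN 2 within the Vehicle range. The groups came apart in 1 of the 35 genes, DKK1, with NMN 4 only just below Vehicle 1. The share over all tested genes was not counted after this scaling.

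Genes of the pathway outside the 44 gave no call either. Of 17 tested genes of the destruction complex and its regulators, 12 had a higher mean and 5 a lower one in NMN tumors, and 0 passed. The 12 are 70.6%, against 51.0% of all tested genes with the higher mean. CSNK1E, a kinase of Dishevelled and LRP6, was at 68.7, 64.0, 76.2 and 67.7 TPM in NMN 1 to 4, against 57.8, 53.7, 57.7 and 51.6 TPM in Vehicle 1 to 4. Its groups did not overlap, as in 1 of the 17 genes and 3.05% of all tested genes, and its log2 fold change was 0.32 ± 0.09 (adjusted p = 0.374). TNKS, a tankyrase that turns over AXIN proteins, had a log2 fold change of 0.28 ± 0.16, and CSNK1A1, the most abundant of the list, one of -0.05 ± 0.09. Of 15 tested nuclear genes, 8 had a higher mean (53.3%, against 51.0%) and 7 a lower one in NMN tumors, and 0 passed. The corepressor gene TLE2 averaged 21.8 ± 6.33 TPM in NMN tumors, against 13.3 ± 2.37 TPM in Vehicle tumors (log2 fold change 0.65 ± 0.19, adjusted p = 0.381). TCF7L1, a TCF factor that mostly represses, had a log2 fold change of 0.32 ± 0.14, and CTNNBIP1, an inhibitor of β-catenin and TCF binding, one of -0.03 ± 0.09.

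Of 13 tested genes of ligand secretion and extracellular control, 8 had a higher mean and 5 a lower one in NMN tumors, and 0 passed. The 8 are 61.5%, against 51.0% of all tested genes. WLS, the carrier that brings Wnt ligands to the cell surface, was at 27.4, 25.4, 33.3 and 36.7 TPM in NMN 1 to 4, against 35.1, 35.3, 42.4 and 53.1 TPM in Vehicle 1 to 4. NMN 4 lay within the Vehicle range and the other NMN tumors below it, and the log2 fold change was -0.42 ± 0.16 (adjusted p = 0.601). RSPO1, an R-spondin that binds the LGR receptors, was at 4.38, 2.45, 3.32 and 1.71 TPM in NMN 1 to 4, against 2.47, 1.06, 1.17 and 0.46 TPM in Vehicle 1 to 4, a log2 fold change of 0.82 ± 0.28 (adjusted p = 0.500). SOSTDC1, a secreted antagonist of BMP and Wnt ligands, was the most abundant of the list, with 69.3 ± 10.6 TPM in NMN tumors, against 62.7 ± 24.3 TPM in Vehicle tumors.

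Of 16 tested genes reported as Wnt targets, 3 of them also among the 44, 9 had a higher mean and 7 a lower one in NMN tumors, and 0 passed. The 9 are 56.25%, against 51.0% of all tested genes. SOX9, a transcription factor of progenitor cells, was at 96.4, 70.5, 128 and 116 TPM in NMN 1 to 4, against 77.2, 57.8, 66.5 and 55.1 TPM in Vehicle 1 to 4. As in WNT6 and FZD7, NMN 2 was the NMN tumor inside the Vehicle range, and the log2 fold change was 0.65 ± 0.18 (adjusted p = 0.348). NKD2, a relative of NKD1 named here after its values were seen, was at 2.99, 1.71, 2.56 and 1.33 TPM in NMN 1 to 4, against 1.03 to 1.27 TPM in Vehicle tumors. The groups did not overlap in NKD2, the 1 of the 16 genes where this held (3.05% of all tested genes), with a log2 fold change of 0.51 ± 0.19 (adjusted p = 0.584). The matrilysin gene MMP7 was at 78.5, 65.3, 158 and 22.5 TPM in NMN 1 to 4, against 34.3, 13.8, 35.4 and 10.6 TPM in Vehicle 1 to 4, and had a log2 fold change of 1.62 ± 0.52 (adjusted p = 0.451), with NMN 4 inside the Vehicle range. CD44, the most abundant of the list, averaged 283 ± 47.1 TPM in NMN tumors, against 329 ± 77.4 TPM in Vehicle tumors. Of 20 tested planar polarity and noncanonical genes, 14 had a higher mean (70.0%, against 51.0%) and 6 a lower one in NMN tumors, and 0 passed. PRICKLE1, a core polarity gene, had a log2 fold change of 0.37 ± 0.17, and RHOA, a small GTPase of the same branch and the most abundant of the list, one of 0.18 ± 0.09.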

How the data were processed

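RNA of 8 tumors was sequenced, 4 per group. The authors deposited 1 table of TPM per gene (unit per the file headers). Tools listed in the submitters' processing notes, with no role or order, are RSEM 1.2.8, HISAT2 2.1.0 and Bowtie2 2.2.5, and the build is GRCh38.p13. TPM keeps no depth, so no interval for counting error can be had. Whole-gene TPM was log2-transformed with a pseudocount of 1, filtered (at least 1 TPM in at least 4 tumors) and tested two-sided with limma 3.58.1 (R 4.3.3; trended prior variance; group as the only term). For single genes an exact permutation test, also two-sided, took the difference in mean log2(TPM + 1) over all 70 splits. The model was tested on simulated data with added changes larger than those seen in the Wnt genes. That run therefore does not show whether differences of the size seen here would be found. The genes and lists were chosen with earlier results of these data known. Named with full statistics were WNT6, the 5 other tested members with the smallest unadjusted p and the 3 with the highest mean, and in each pathway list the 2 genes with the smallest p and the most abundant. Other genes are given by level, and fold changes or intervals were added, after the values were seen, for WNT11, WNT9A, FZD1, FZD4, LRP5, LRP6, AXIN2, RNF43, ZNRF3, LGR4, LGR5, NKD2 and KRT8. Alternatives were other pseudocounts, filters, scalings, variance models, a block for replicate number, library weights, and each tumor left out. Positions are from GENCODE 29, promoters from RefSeq GRCh38.p14.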

Additional observations from a re-analysis of the deposited data

Results flagged for a closer look

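In 3 of the 70 groups of 4 tumors examined for the 35 tested Wnt genes, 1 tumor stood far from the other 3 of its group, where chance gives about 1 in 20. FZD1 was at 8.32 TPM in NMN 2, against 12.99 to 13.07 TPM in the other NMN tumors. WNT7A was at 5.22 TPM in NMN 1, against 2.96 to 3.14 TPM in the other NMN tumors. WNT10A was at 14.54 TPM in Vehicle 4, against 8.51 to 8.84 TPM in the other Vehicle tumors.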

How the results depend on the processing

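Under every alternative run, 0 Wnt genes passed the adjusted threshold. The adjusted p of WNT6 ran from 0.142 (library weights) to 0.9998 (without NMN 3), and its log2 fold change stayed positive, from 0.50 without NMN 3 to 0.95 without NMN 2. That of SFRP1 ran from 0.55 without NMN 4 to 0.92 without NMN 2, with the smallest adjusted p, 0.0732, under the replicate block. Same-numbered tumors did not deviate together (correlations from -0.12 to 0.026), and the samples were treated as unpaired. So few correlations cannot exclude a pairing by number. With the replicate block 2 genes of all passed, and with library weights 54. With 1 tumor left out 0 to 54 genes of all passed: 54 without NMN 4, 1 without Vehicle 3 and 0 otherwise. At an unadjusted p under 0.05, genes lower in NMN tumors numbered 287, and 437 with no filter, 442 with median-of-ratios scaling, 514 with quantile normalization, 634 with library weights and 189 to 652 with 1 tumor left out; genes higher numbered 640, and 379 to 814 with 1 tumor left out. Of the Wnt genes, 5 stood under that value, 9 with library weights and 3 (without NMN 1 or NMN 3) to 7 (without Vehicle 4) with 1 tumor left out. The share of all tested genes under that value moved too, from 6.94% to 11.2% with library weights. It was 4.96% without NMN 1, 4.25% without NMN 3 and 6.25% without Vehicle 4. Groups did not overlap in 0 Wnt genes, in 1 with median-of-ratios scaling and in 0 to 3 with 1 tumor left out, the 3 being WNT6, FZD1 and FZD7 without NMN 2 and DKK1, FZD4 and WNT7B without NMN 4. The share over all tested genes was not counted in these runs. With 1 tumor left out, groups also separate more easily, so these counts are a description only. With a filter at 5 TPM 11 of 18 Wnt genes had the higher mean, against 21 of 35, and 18 to 23 of 35 with 1 tumor left out. The median log2 fold change ran from 0.0099 to 0.158 with 1 tumor left out. With library weights LGR4 (-0.065) and ROR2 (0.013) changed sign. With 1 tumor left out 10 of the 35 changed sign at least once, with ranges of -0.33 to 0.010 for DKK3, -0.34 to 0.053 for FZD2, -0.081 to 0.14 for LGR4, -0.13 to 0.048 for LRP5, -0.14 to 0.047 for ROR2, -0.058 to 0.15 for WNT10B, -0.014 to 0.28 for WNT3, -0.45 to 0.013 for WNT5A, -0.046 to 0.50 for WNT7A and -0.057 to 0.16 for ZNRF3. The cause of these shifts was not tested.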
